A study of Homo sapiens with 6 samples.

Results

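The genes described here are 44 genes of the hypoxia response and of glycolysis, out of 34234 genes in the deposited counts. They were listed by what they encode, with earlier results of these data already known, and are oxygen sensors and hypoxia-inducible factors, glucose transporters, glycolytic enzymes, enzymes and a transporter that set the fate of pyruvate and lactate, carbonic anhydrases, and well-known targets of the hypoxia-inducible factors. All 44 were found in the counts. Their levels were compared between HCCLM3 cells given a lentivirus with a short hairpin RNA against ATXN7L3 (shATXN7L3, 3 libraries) and HCCLM3 cells given a lentivirus with a control hairpin (shcontrol, 3 libraries). HCCLM3 is a line of human hepatocellular carcinoma, and ATXN7L3 is an adaptor of the module of the SAGA coactivator complex that removes ubiquitin from histone H2B. Both groups were grown in DMEM with serum in a CO2 incubator. The labels name no low-oxygen treatment and give neither the oxygen level, the number of hairpins nor whether the cells were selected or cloned. Whether the replicates come from separate cultures is not stated either; if they do not, the p-values reflect technical spread alone.

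Hypoxia-inducible factors are transcription factors made of an alpha subunit, such as HIF-1alpha, and a stable partner. With oxygen present, prolyl hydroxylases mark the alpha subunit for the VHL ubiquitin ligase and it is degraded, so its activity is controlled mostly at the protein and not at the mRNA. Under low oxygen the factor binds hypoxia response elements and raises genes of glucose uptake, glycolysis, lactate export, pH control and blood vessel growth, and the program is often active in liver cancer.

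The libraries held 22757031 to 23915783 counts in shATXN7L3 and 22376867 to 23033763 counts in shcontrol. Levels are counts per 1e6 counts after TMM scaling (CPM). ATXN7L3 itself (chromosome 17, 44191805 to 44200113, minus strand) stood at 20.6, 20.5 and 19.5 CPM in shATXN7L3, against 36.4, 37.5 and 37.5 CPM in shcontrol, a remaining level of 54.5%, with 50.4% to 58.9% as the range of ± 2 SE (edgeR adjusted p = 6.69e-10). Of 7 hepatocyte and hepatoma markers, 5 averaged at least 1 CPM, with summed levels of 1634 to 1777 CPM in shATXN7L3 and 1829 to 1994 CPM in shcontrol. Most of this sum came from the keratin genes KRT8 and KRT18. KRT8 averaged 1480 CPM in shATXN7L3 and 1652 CPM in shcontrol, and KRT18 154.5 CPM in shATXN7L3 and 175.5 CPM in shcontrol. APOB averaged 25.4 CPM in shATXN7L3 and 42.0 CPM in shcontrol, and AFP 2.04 CPM in shATXN7L3 and 2.91 CPM in shcontrol. ALB, the defining hepatocyte gene, had 23.3 to 25.4 CPM in shATXN7L3 and 63.2 to 66.2 CPM in shcontrol, and APOA1 and TTR did not reach 1 CPM. Leukocyte markers (4) summed to 0.581 to 0.879 CPM in shATXN7L3 and 0.506 to 0.800 CPM in shcontrol, and none of them averaged 1 CPM. Fibroblast and stellate markers (4) summed to 0.344 to 0.586 CPM in shATXN7L3 and 0.439 to 0.644 CPM in shcontrol, again with none at 1 CPM. Of 4 endothelial markers, PECAM1 and KDR were detected above 1 CPM, and the list summed to 42.4 to 44.4 CPM in shATXN7L3 and 57.2 to 62.1 CPM in shcontrol. The lower sum came from PECAM1, which averaged 28.0 CPM in shATXN7L3 and 43.7 CPM in shcontrol. KDR averaged 15.3 CPM in shATXN7L3 and 15.5 CPM in shcontrol (edgeR adjusted p = 0.917). VWF and CDH5 did not reach 1 CPM in either group. The part of these marker shifts in the results that follow was not tested. These are bulk libraries, in which fewer cells of a type and less RNA per cell cannot be told apart.

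Of the 44 genes, 41 had enough counts to be tested. With ATXN7L3 lowered, 16 of them rose and 6 fell at an adjusted p under 0.05 (edgeR quasi-likelihood test, adjusted over 17935 genes), and 19 did not pass. Over all tested genes 12.2% rose and 12.0% fell, 24.2% in all, against 53.7% of the 41. The 6 falls among the 41 were a share near the 12.0% over all tested genes, so the difference lay in the rises. Since the list was drawn up with results known, this difference is a description of the list. Abundant genes are called more readily: among genes averaging at least 10 CPM, 32.0% were called, and of the 35 members at that level 14 rose and 6 fell. The changes were mostly small. The median size of a called change was 0.22 on the log2 scale among the members and 0.32 over all called genes, and 6 members passed with a change of at least 0.5, which 6.66% of all tested genes did. Among members above 10 CPM the largest rises were those of ENO2, an isozyme of enolase best known from neurons, and NDRG1, a stress-induced gene. The largest falls there were those of HIF1A, which encodes HIF-1alpha, and SLC2A1, which encodes the glucose transporter GLUT1.

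**Figure D1:**
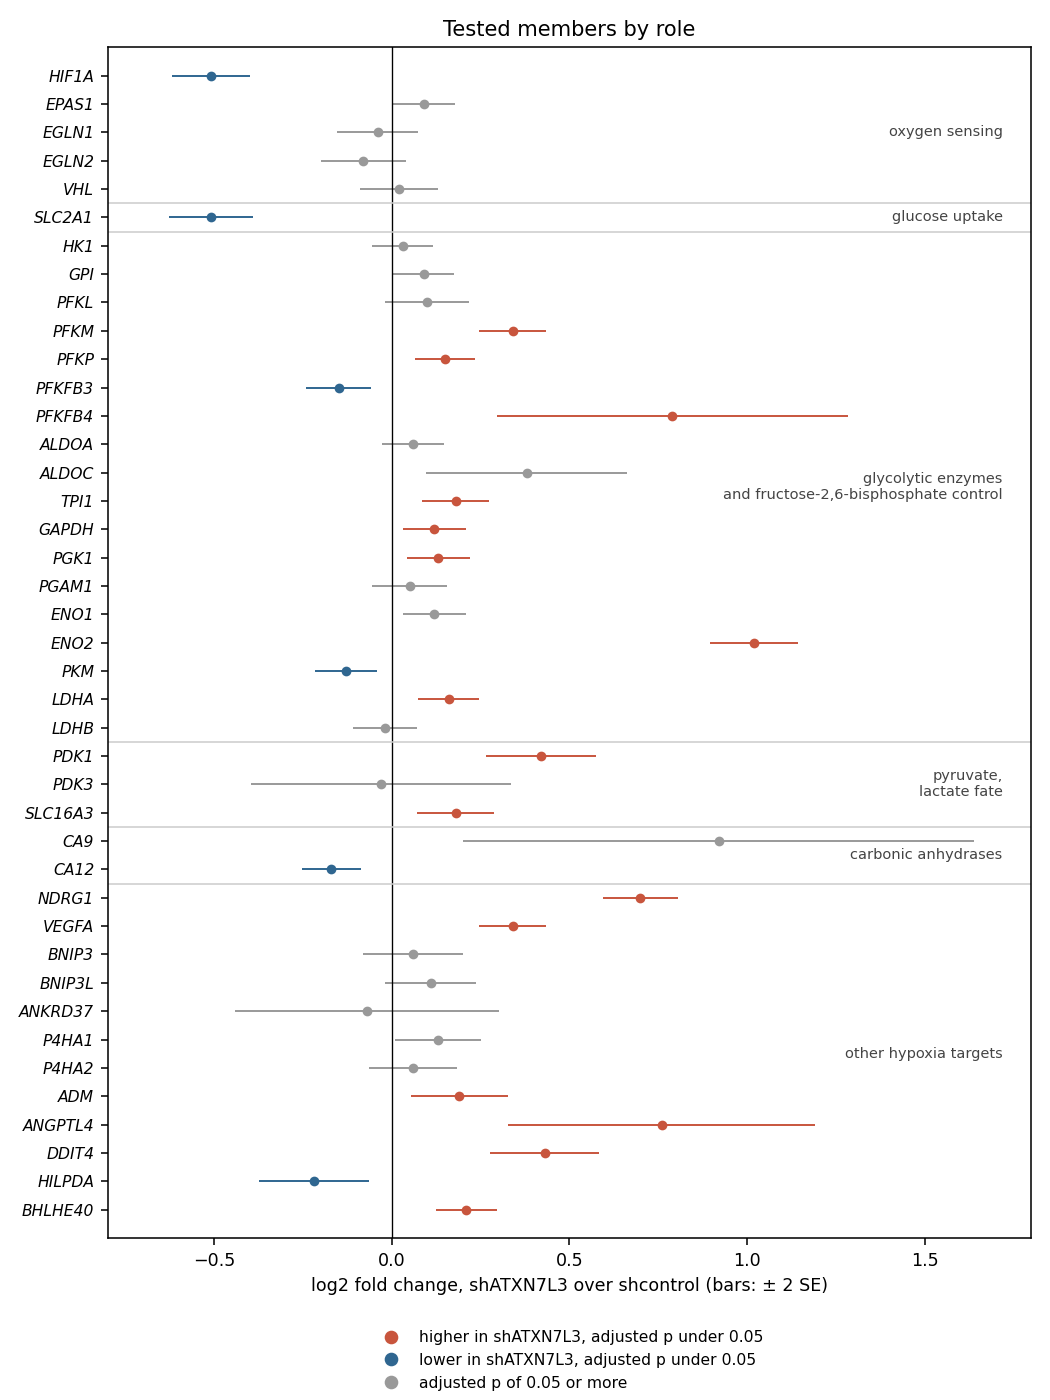
Log2 fold change (shATXN7L3 over shcontrol) of the 41 tested genes with bars of ± 2 SE, grouped by role and coloured by the edgeR call (red for higher in shATXN7L3, blue for lower, grey for not called). ENO2 stands farthest to the right among the narrow bars, at 1.02, and HIF1A and SLC2A1 stand together on the left, both at -0.51, while most glycolytic enzymes lie just right of 0.

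The calls differed in how well they held. Across 13 other ways of scaling, filtering and fitting, each single library left out among them, 10 members kept their call every time. These were 7 that rose (ENO2, NDRG1, DDIT4, PDK1, VEGFA, PFKM and BHLHE40) and 3 that fell (HIF1A, SLC2A1 and CA12). The other 12 called members lost it under at least 1 alternative. Each such count is set beside the share of all tested genes called the same way. Without shATXN7L3 replicate 1, 14 members rose (9.03% of all genes) and 3 fell (8.6%). Without shATXN7L3 replicate 2, 8 rose (8.64%) and 5 fell (8.91%), and without shATXN7L3 replicate 3, 9 rose (8.47%) and 3 fell (8.49%). Without shcontrol replicate 2, 10 rose (9.27%) and 3 fell (9.47%). With library size alone as the scale, 21 rose (16.5%) and 3 fell (8.94%). DESeq2 called 13 higher (7.83%) and 5 lower (8.94%), and a fit with the replicate number as a block 19 higher (12.2%) and 5 lower (11.9%).

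**Figure D2:**
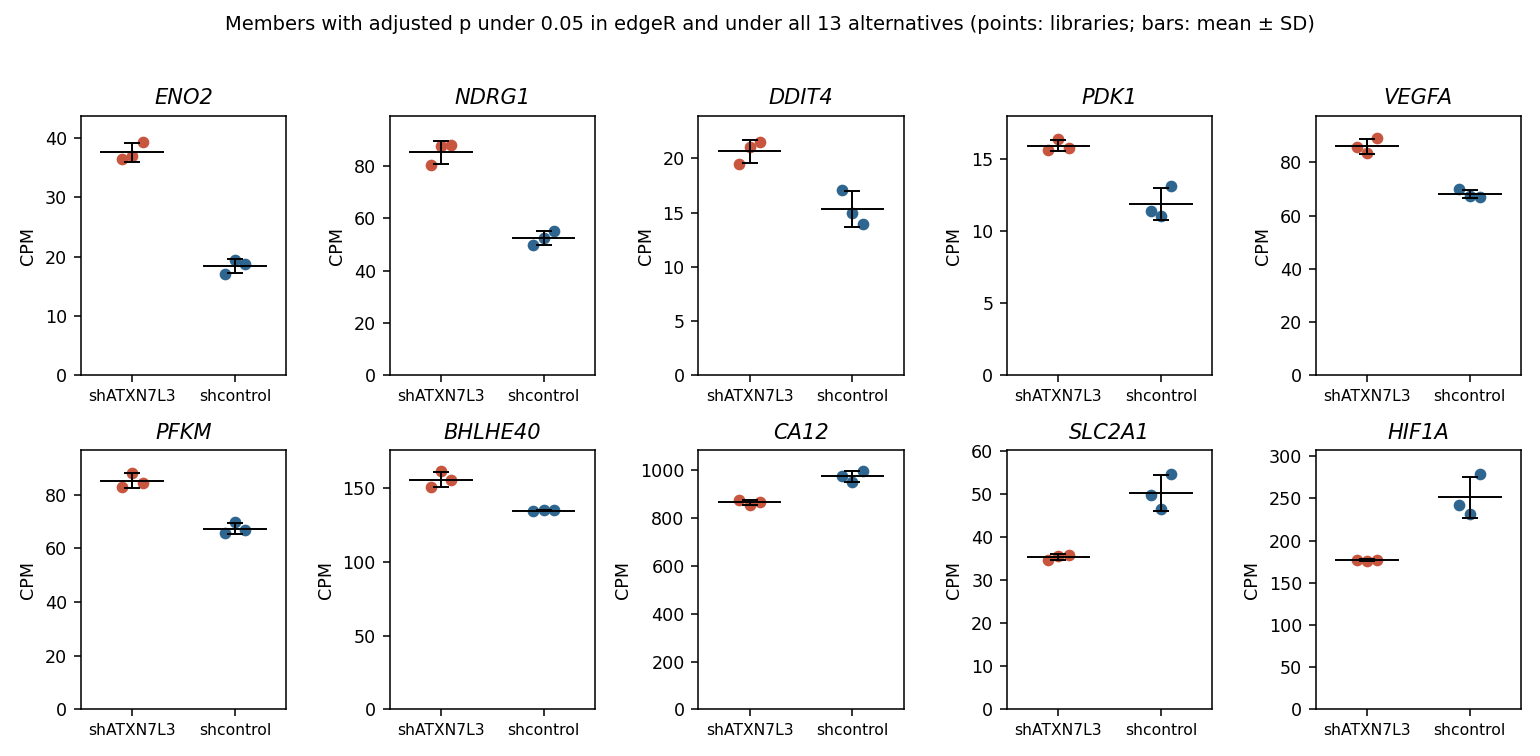
Level in each library (CPM, axis from 0) of the 10 members called with edgeR and under all 13 alternatives, 1 panel per gene, shATXN7L3 left of shcontrol, with bars for mean ± SD (n = 3 each). In every panel the 3 shATXN7L3 points lie wholly above or wholly below the 3 shcontrol points. The panels were chosen by their calls, which favours such separation, and 38.3% of all tested genes had groups that did not overlap.

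To show what lies in front of these genes, promoter windows were read from the RefSeq promoter table on GRCh38.p14, from 250 bases before to 50 bases after an annotated start. Windows were found for 38 of the 44 genes, 66 windows in all, since a gene can have several starts. The core of the hypoxia response element is commonly written as ACGTG or GCGTG, and both were searched on both strands. A match is a description of letters and not a binding site. ACGTG was in 28 of the 66 windows (42.4%), against 25.4% of the windows of all tested genes and 21.4% of all 35116 windows. GCGTG was in 39.4% of the member windows, against 47.5% for tested genes and 36.5% of all windows. Counted per gene over all its windows, ACGTG was in front of 24 of the 38 genes (63.2%), against 32.2% of tested genes. It was found for 12 of the 14 risen genes with a window, 1 of the 5 fallen genes and 10 of the 17 that did not pass. These genes were listed partly as known targets, so the higher share says nothing about the change in these cells. The windows of 2 genes that rose (ENO2 and PDK1) and 2 that fell (HIF1A and SLC2A1) are shown 5′ to 3′ on the strand of the gene, with the ACGTG or GCGTG matches in capitals. PDK1 and HIF1A each have a further window in the table, in which neither motif was found and which is not shown. In PDK1 the capitals read CACGT, which is ACGTG on the other strand. The ENO2 window is chr12:6914330-6914629 (plus strand), that of PDK1 chr2:172555840-172556139 (plus strand), that of HIF1A chr14:61695263-61695562 (plus strand) and that of SLC2A1 chr1:42958819-42959118 (minus strand).
ENO2: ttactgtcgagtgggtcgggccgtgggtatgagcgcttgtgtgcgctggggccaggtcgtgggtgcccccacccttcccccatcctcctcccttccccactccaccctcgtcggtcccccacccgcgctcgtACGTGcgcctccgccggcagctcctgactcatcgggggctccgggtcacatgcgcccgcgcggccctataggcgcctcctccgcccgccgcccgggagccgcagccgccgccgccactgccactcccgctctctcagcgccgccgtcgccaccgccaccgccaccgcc
PDK1: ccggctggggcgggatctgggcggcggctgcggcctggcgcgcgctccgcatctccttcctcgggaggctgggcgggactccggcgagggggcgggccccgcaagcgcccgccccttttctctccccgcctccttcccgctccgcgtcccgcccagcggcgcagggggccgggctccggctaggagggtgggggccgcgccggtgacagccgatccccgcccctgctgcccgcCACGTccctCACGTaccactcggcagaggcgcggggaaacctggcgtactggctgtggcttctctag
HIF1A: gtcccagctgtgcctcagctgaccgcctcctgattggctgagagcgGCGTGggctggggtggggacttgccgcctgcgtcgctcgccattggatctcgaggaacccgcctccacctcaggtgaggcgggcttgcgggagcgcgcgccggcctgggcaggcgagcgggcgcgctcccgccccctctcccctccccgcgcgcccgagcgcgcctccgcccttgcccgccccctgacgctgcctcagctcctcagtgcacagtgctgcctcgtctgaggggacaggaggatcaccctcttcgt
SLC2A1: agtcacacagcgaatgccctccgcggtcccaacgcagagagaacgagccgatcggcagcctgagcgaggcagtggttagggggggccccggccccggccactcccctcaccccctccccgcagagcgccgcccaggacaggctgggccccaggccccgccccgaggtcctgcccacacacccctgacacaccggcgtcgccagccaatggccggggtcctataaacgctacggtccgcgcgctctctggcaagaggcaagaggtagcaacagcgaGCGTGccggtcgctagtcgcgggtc

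Among the oxygen sensors and factors, HIF1A fell and the other 4 tested genes did not pass. HIF1A (chromosome 14, 61695513 to 61748259, plus strand) had 177.5, 176.2 and 177.2 CPM in shATXN7L3, against 242.3, 232.1 and 279.1 CPM in shcontrol. The shATXN7L3 libraries lay close together and all below the shcontrol libraries, of which replicate 3 was the highest. The mean was 177 ± 0.681 CPM in shATXN7L3 and 251 ± 24.7 CPM in shcontrol (SD, n = 3 each), a log2 fold change of -0.51 ± 0.0552 (SE; edgeR adjusted p = 1.25e-06), or 0.705 of the control level (0.653 to 0.761 at ± 2 SE). In front of it the printed window holds a single GCGTG. RP11-618G20.1 on the same strand and HIF1A-AS1 on the opposite strand overlap 5.15% of the exon bases of HIF1A. HIF1A-AS1 also fell (log2 fold change -0.43, edgeR adjusted p = 0.0144). EPAS1, which encodes HIF-2alpha, the other main alpha subunit, had 123.6, 123.9 and 120.1 CPM in shATXN7L3 and 110.7, 116.5 and 117.5 CPM in shcontrol. Its groups did not overlap, with shATXN7L3 above, but the log2 fold change of 0.09 ± 0.0442 did not pass (adjusted p = 0.143). It passed with library size alone (edgeR adjusted p = 0.0340). Per kilobase of exon the 2 alpha subunits stood at 34.4 CPM per kb (HIF1A) and 16.8 CPM per kb (EPAS1) in shATXN7L3, against 48.8 CPM per kb (HIF1A) and 15.7 CPM per kb (EPAS1) in shcontrol.

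None of the tested prolyl hydroxylases passed, nor did VHL. EGLN1, which encodes the main prolyl hydroxylase PHD2, averaged 37.6 ± 2.59 CPM in shATXN7L3 and 38.6 ± 1.02 CPM in shcontrol (log2 fold change -0.04, -0.16 to 0.07 at ± 2 SE). EGLN2, which encodes PHD1, averaged 46.2 ± 1.65 CPM in shATXN7L3 and 48.8 ± 4.34 CPM in shcontrol (adjusted p = 0.383). The genes RAB4B-EGLN2 and CTC-490E21.12 overlap 27.25% of its exon bases on the same strand, where reads cannot be told apart. VHL, the recognition subunit of the ligase, averaged 71.8 ± 4.59 CPM in shATXN7L3 and 70.8 ± 3.93 CPM in shcontrol (log2 fold change 0.02, -0.09 to 0.13). EGLN3, which encodes PHD3 and is usually a strongly induced target, was too low to test, with 6 counts summed over the shATXN7L3 libraries and 3 over the shcontrol libraries, a ratio of 1.88 after scaling (0.402 to 11.6, 95% exact interval for counting error only).

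Glucose uptake was represented by 2 transporters. SLC2A1 (chromosome 1, 42925375 to 42959173, minus strand), the widespread transporter GLUT1, had 34.6, 35.6 and 35.8 CPM in shATXN7L3, against 49.7, 46.4 and 54.6 CPM in shcontrol. All 3 shATXN7L3 values lay below the shcontrol values, and shcontrol replicate 3 was again the highest. The mean fell to 35.3 ± 0.638 CPM in shATXN7L3, against 50.2 ± 4.16 CPM in shcontrol (log2 fold change -0.51 ± 0.0590, adjusted p = 2.51e-06; 0.703 of the control level, 0.648 to 0.763 at ± 2 SE). SLC2A3, the high-affinity transporter GLUT3, was barely detected and not tested, with 24 counts summed over shATXN7L3 and 28 over shcontrol (ratio 0.806, 0.447 to 1.44). Its 3 pseudogenes in the counts held 76 to 127 counts a library between them, more than the gene itself.

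Of the 17 glycolytic enzymes, 16 were tested: 7 rose, PKM fell and 8 did not pass, where 12.2% of all tested genes rose and 12.0% fell. All but PKM and LDHB had a positive log2 fold change, and the median was 0.12. The calls of PFKM and ENO2 held under all 13 alternatives, while those of PFKP, TPI1, GAPDH, PGK1 and LDHA were lost under at least 1. In place of 7 enzymes, 5 were called higher without shATXN7L3 replicate 1 (9.03% of all tested genes), 2 without replicate 2 (8.64%) and 4 without replicate 3 (8.47%). Without replicate 2, the 2 of 16 enzymes were a share not far from that of all tested genes. Replicate 2 stood apart in these genes. It was the highest of its group in 13 of the 16 enzymes and replicate 1 the lowest in 12. The median log2 difference of the 16 genes from the shcontrol mean was 0.08, 0.16 and 0.10 in shATXN7L3 replicates 1, 2 and 3, and 0.02, 0.01 and -0.02 in the shcontrol replicates. Each shATXN7L3 library thus lay above each shcontrol library in this median. The summed level of the 16 did not separate the groups, with 10255, 10993 and 10486 CPM in shATXN7L3 and 10702, 10564 and 10358 CPM in shcontrol; PKM, the most abundant of them, went the other way.

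**Figure D3:**
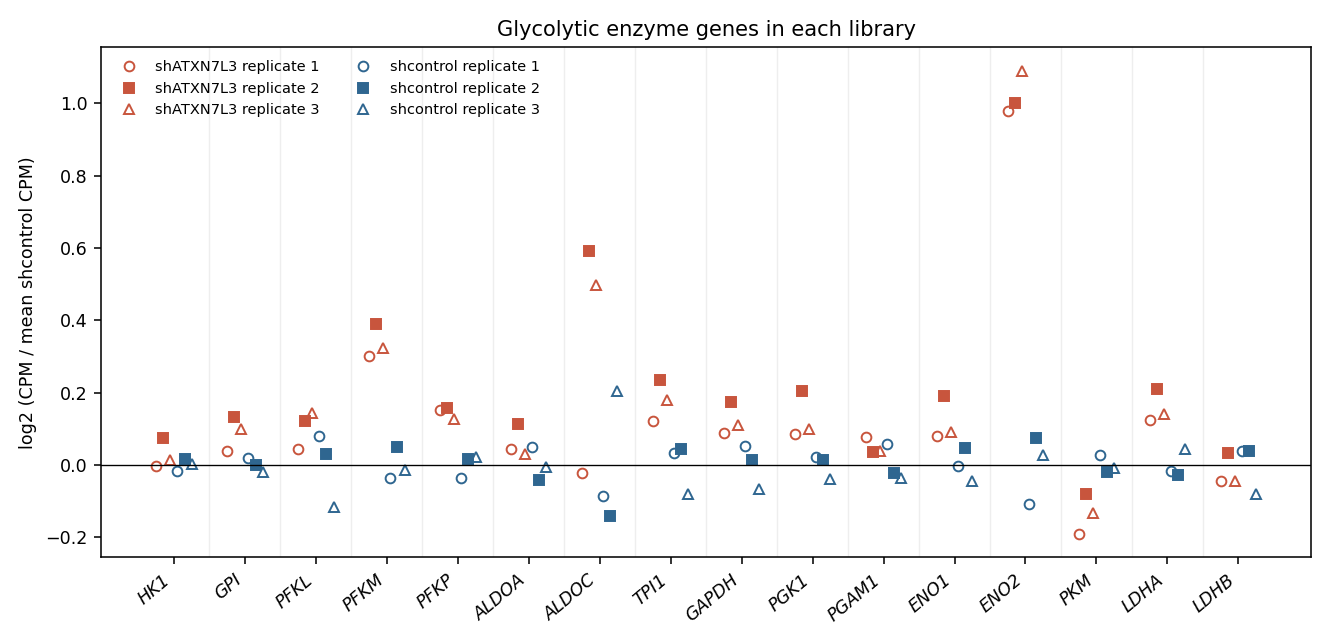
Log2 difference from the shcontrol mean for the 16 tested glycolytic enzymes in pathway order, 1 point per library, shATXN7L3 in red to the left of shcontrol in blue, with a marker shape per replicate. The filled red squares of shATXN7L3 replicate 2 are the highest red points in 13 of the 16 genes, and the ENO2 points of shATXN7L3 lie far above all others.

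The enzymes are taken in the order of the pathway. Hexokinase traps glucose as glucose 6-phosphate. HK1, the housekeeping isozyme, averaged 201.5 ± 5.74 CPM in shATXN7L3 and 197.6 ± 2.23 CPM in shcontrol (log2 fold change 0.03, -0.06 to 0.11 at ± 2 SE). HK2, the isozyme often gained by tumours, was almost undetected, with 6 counts over the shATXN7L3 libraries and 28 over the shcontrol libraries, a ratio of 0.202 (0.0682 to 0.496). It was below the filter on low counts. With no filter, its log2 fold change was -2.24 ± 0.592 (edgeR adjusted p = 0.00218), at a level where each shATXN7L3 library gave 0.0830 to 0.0860 CPM and the shcontrol libraries 0.308 to 0.622 CPM. HKDC1, a hexokinase-like gene of the wider list, had fewer CPM than HK1 in both groups. Per kilobase of exon the order reversed, with annotated lengths of 6073 bases for HK1 and 4259 bases for HKDC1. On that scale HKDC1 made up 54.9% of the step in shATXN7L3 and 57.2% in shcontrol. HK1 made up 45.03% in shATXN7L3 and 42.7% in shcontrol. Which of the pair held more mRNA thus depends on the annotated length. HKDC1 itself did not pass (172.4 ± 1.62 CPM in shATXN7L3, 185.5 ± 5.66 CPM in shcontrol, adjusted p = 0.0792).

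GPI, which turns glucose 6-phosphate into fructose 6-phosphate, averaged 243.3 ± 7.93 CPM in shATXN7L3 and 228.6 ± 3.07 CPM in shcontrol. The groups did not overlap but the log2 fold change of 0.09 did not pass (adjusted p = 0.142). With library size alone GPI passed (edgeR adjusted p = 0.0192). Phosphofructokinase, the main control point of the pathway, has 3 isozymes. The muscle isozyme PFKM (chromosome 12, 48105139 to 48146404, plus strand) had 83.0, 88.3 and 84.3 CPM in shATXN7L3, against 65.7, 69.7 and 66.8 CPM in shcontrol. The groups were clearly apart, and PFKM rose by a log2 fold change of 0.34 ± 0.0473 (adjusted p = 2.38e-05; 1.26-fold, 1.18 to 1.35 at ± 2 SE). SENP1 on the opposite strand overlaps 8.62% of its exon bases. The platelet isozyme PFKP had 150.4, 150.9 and 147.9 CPM in shATXN7L3 and 132.0, 136.8 and 137.4 CPM in shcontrol (log2 fold change 0.15 ± 0.0425, adjusted p = 0.0167). Its call was lost without any 1 of the shATXN7L3 libraries, at adjusted p up to 0.0748. The liver isozyme PFKL averaged 36.3 ± 1.28 CPM in shATXN7L3 and 33.8 ± 2.39 CPM in shcontrol and did not pass (adjusted p = 0.227). Within the step PFKM made up 25.03% ± 0.493 in shATXN7L3 and 22.6% ± 0.342 in shcontrol, and PFKP, the main isozyme here, 66.3% in shATXN7L3 and 68.2% in shcontrol.

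The PFKFB enzymes make and break fructose 2,6-bisphosphate, the activator of phosphofructokinase, and moved in opposite directions. PFKFB3, the isozyme with the strongest synthetic activity, had 77.0, 78.2 and 73.7 CPM in shATXN7L3, against 83.1, 84.7 and 86.6 CPM in shcontrol. It fell by 0.15 on the log2 scale (SE 0.0460, adjusted p = 0.0204), with no overlap of the groups. The call was lost with library size alone, without shATXN7L3 replicate 1 or 3 and without shcontrol replicate 2, at adjusted p up to 0.133. PFKFB4, a related isozyme, had 1.20, 2.41 and 2.09 CPM in shATXN7L3 and 1.24, 0.921 and 1.14 CPM in shcontrol. Its shATXN7L3 replicate 1 lay within the shcontrol range, and the rise of 0.79 ± 0.248 (adjusted p = 0.0255) was lost with DESeq2, without shATXN7L3 replicate 2 or 3 and without shcontrol replicate 2, at adjusted p up to 0.165.

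Aldolase splits fructose 1,6-bisphosphate into a pair of triose phosphates, which triosephosphate isomerase interconverts. ALDOA averaged 282.2 ± 8.82 CPM in shATXN7L3 and 270.3 ± 8.50 CPM in shcontrol and did not pass (adjusted p = 0.337). ALDOC, a minor isozyme here, had 5.25, 8.05 and 7.53 CPM in shATXN7L3 and 5.02, 4.83 and 6.15 CPM in shcontrol, with overlapping groups (log2 fold change 0.38 ± 0.142, adjusted p = 0.0571). It passed under 5 alternatives: with the replicate block (edgeR adjusted p = 0.0303), library size alone (0.0409) or no filter (0.00879), and without shATXN7L3 replicate 1 (0.00463) or shcontrol replicate 3 (0.0148). RP11-192H23.5 on the opposite strand overlaps 10.1% of the exon bases of ALDOC and also rose (log2 fold change 0.7, edgeR adjusted p = 0.045). Reads of ALDOC and RP11-192H23.5 cannot be told apart without strand. TPI1 had 228.4, 247.4 and 237.7 CPM in shATXN7L3, against 215.0, 216.9 and 198.7 CPM in shcontrol. Its groups did not overlap and it rose by a log2 fold change of 0.18 ± 0.0471 (adjusted p = 0.00864), a call lost only without shATXN7L3 replicate 2 (adjusted p = 0.0698).

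The later steps of the pathway, from GAPDH to enolase, yield ATP and NADH. GAPDH, a gene often used as a constant reference, had 943.1, 1001 and 958.4 CPM in shATXN7L3 and 919.3, 895.9 and 847.8 CPM in shcontrol. The groups did not overlap, but the log2 fold change was 0.12 ± 0.0444 and the call (adjusted p = 0.0477) was lost under 8 of the 13 alternatives, at adjusted p up to 0.210. RP5-940J5.9 on the opposite strand overlaps 14.2% of the exon bases of GAPDH and had nearly the same change (log2 fold change 0.11, edgeR adjusted p = 0.143). Reads of the pair cannot be told apart without strand. PGK1, the first ATP-making enzyme, had 986.2, 1072 and 995.3 CPM in shATXN7L3 and 944.5, 938.7 and 905.2 CPM in shcontrol. It passed with a log2 fold change of 0.13 ± 0.0443 (adjusted p = 0.0371), and the call was lost without any 1 of the shATXN7L3 libraries and without shcontrol replicate 2. PGAM1, the mutase, averaged 38.3 ± 0.633 CPM in shATXN7L3 and 37.0 ± 1.32 CPM in shcontrol (adjusted p = 0.546). ENO1, the main enolase, had 1260, 1362 and 1270 CPM in shATXN7L3 and 1190, 1231 and 1157 CPM in shcontrol. It lay above shcontrol in every shATXN7L3 library and did not pass (log2 fold change 0.12 ± 0.0447, adjusted p = 0.0544). It passed with the replicate block (edgeR adjusted p = 0.0484), with library size alone (0.00378) and with no filter (0.0284).

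ENO2 (chromosome 12, 6913745 to 6923698, plus strand) changed most among the tested enzymes. It had 36.4, 37.1 and 39.4 CPM in shATXN7L3, against 17.2, 19.5 and 18.9 CPM in shcontrol. The lowest shATXN7L3 library was far above the highest shcontrol library. ENO2 averaged 37.6 ± 1.56 CPM in shATXN7L3 and 18.5 ± 1.20 CPM in shcontrol, a log2 fold change of 1.02 ± 0.0623 (adjusted p = 2.86e-10), or 2.04-fold (1.87 to 2.22 at ± 2 SE). Its exons overlap no other gene, and its printed window holds a single ACGTG. ENO2 remained a small part of enolase mRNA: per kilobase of exon it made up 2.47% ± 0.156 of the step in shATXN7L3 and 1.33% ± 0.0873 in shcontrol, while ENO1 made up 92.0% in shATXN7L3 and 93.0% in shcontrol.

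Pyruvate kinase and lactate dehydrogenase close the pathway. PKM, the pyruvate kinase of most tumours and the most abundant member per kilobase, had 4008, 4330 and 4173 CPM in shATXN7L3, against 4663, 4521 and 4555 CPM in shcontrol. It is the only one of the 16 enzymes that fell (log2 fold change -0.13 ± 0.0438, adjusted p = 0.0298), with no overlap between the groups. The call was lost with library size alone, without shATXN7L3 replicate 1 or 3 and without shcontrol replicate 2, at adjusted p up to 0.212. LDHA, which favours making lactate, had 678.1, 719.8 and 686.6 CPM in shATXN7L3 and 615.1, 611.4 and 641.7 CPM in shcontrol. It rose by 0.16 ± 0.0428 on the log2 scale (adjusted p = 0.0102), a call lost without shATXN7L3 replicate 2 (adjusted p = 0.0761). LDHB, which favours using lactate, averaged 1111 ± 35.1 CPM in shATXN7L3 and 1125 ± 52.8 CPM in shcontrol (log2 fold change -0.02, -0.11 to 0.07). Per kilobase of exon LDHB was the more abundant of the pair, and LDHA made up 23.1% ± 0.120 of the step in shATXN7L3 and 21.0% ± 1.24 in shcontrol.

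Isozymes of a step were also summed per kilobase of exon, minor isozymes of the wider list included. Phosphofructokinase summed to 46.7 ± 0.623 CPM per kb in shATXN7L3 and 41.0 ± 0.697 CPM per kb in shcontrol, the largest log2 difference of the 11 steps at 0.19. Triosephosphate isomerase followed (88.1 ± 3.52 CPM per kb in shATXN7L3, 77.9 ± 3.72 CPM per kb in shcontrol, difference 0.18). Enolase (0.14), phosphoglycerate kinase (0.13), GAPDH (0.12) and glucose-6-phosphate isomerase (0.09) were also higher in every shATXN7L3 library. Pyruvate kinase (-0.13; 487 ± 18.8 CPM per kb in shATXN7L3, 534 ± 8.62 CPM per kb in shcontrol) and hexokinase (-0.05; 73.7 ± 1.10 CPM per kb in shATXN7L3, 76.2 ± 1.58 CPM per kb in shcontrol) were lower in every shATXN7L3 library. Each of these 8 reached the smallest two-sided exact permutation p that 3 against 3 libraries allow, 0.1, so no step can pass 0.05. Of all tested genes taken singly, 38.3% had groups that did not overlap, 19.8% with shATXN7L3 above and 18.4% with shATXN7L3 below. Glucose-6-phosphate isomerase, triosephosphate isomerase and phosphoglycerate kinase hold 1 gene each and repeat its values. The genes GAPDH and PKM made up nearly all of their steps. Aldolase, phosphoglycerate mutase and lactate dehydrogenase overlapped between the groups, with exact p of 0.2, 0.4 and 0.6.

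**Figure D4:**
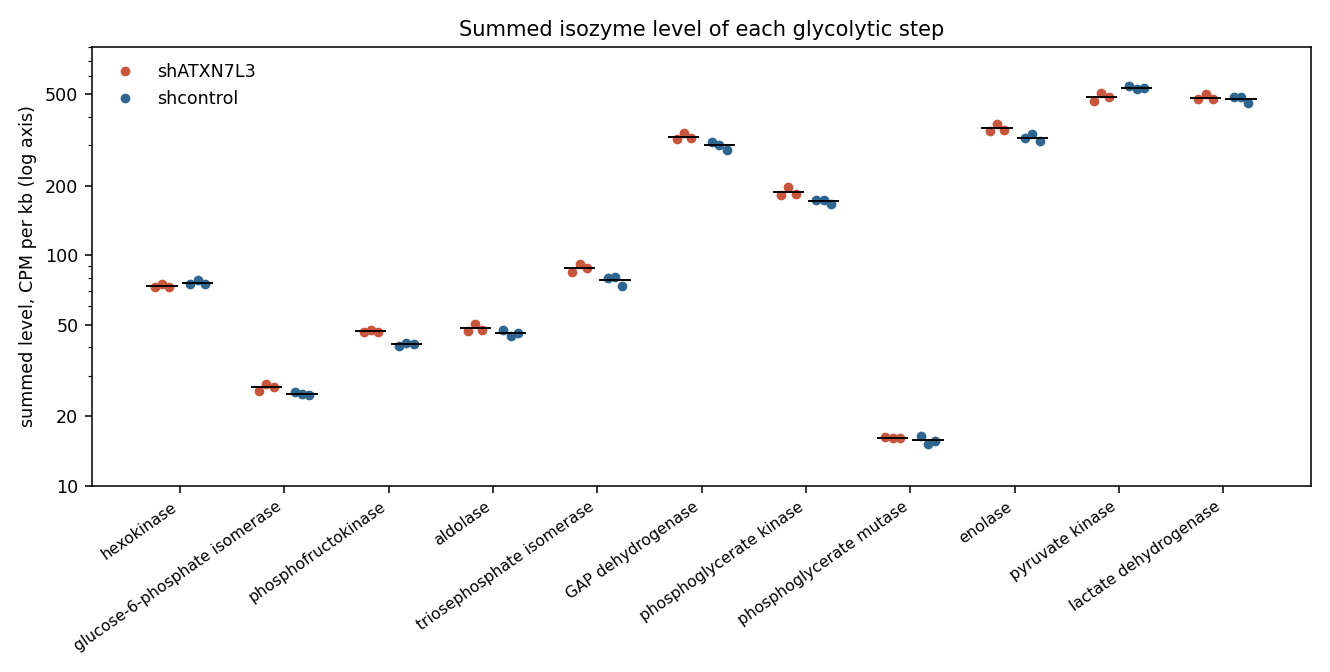
Summed level of the isozymes of each of the 11 steps in CPM per kb (log scale), with 1 point per library and a line at each mean, shATXN7L3 left of shcontrol at each step. The steps run from hexokinase to lactate dehydrogenase; phosphofructokinase is shifted most to higher values in shATXN7L3 (log2 difference 0.19) and pyruvate kinase most to lower values (-0.13).

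Of the genes that decide what becomes of pyruvate and lactate, PDK1 and SLC16A3 rose. These are 2 of 3 tested members, too few to read as a share, where 12.2% of all tested genes rose. PDK1 (chromosome 2, 172555373 to 172608669, plus strand) encodes a kinase that shuts pyruvate dehydrogenase and so limits the use of pyruvate in the mitochondria. It had 15.7, 16.4 and 15.8 CPM in shATXN7L3, against 11.4, 11.1 and 13.1 CPM in shcontrol. The groups did not overlap, and the log2 fold change was 0.42 ± 0.0777 (adjusted p = 4.08e-04; 1.34-fold, 1.21 to 1.49 at ± 2 SE). Its printed window holds ACGTG on the minus strand at 2 places. AC093818.1 on the opposite strand overlaps 2.99% of its exon bases and went the other way (log2 fold change -0.22, adjusted p = 0.00938). SLC16A3, the lactate exporter MCT4, had 150.0, 156.6 and 163.9 CPM in shATXN7L3 and 151.1, 133.6 and 130.2 CPM in shcontrol. The lowest shATXN7L3 library was below the highest shcontrol library, and the call (log2 fold change 0.18 ± 0.0541, adjusted p = 0.0187) was lost without shATXN7L3 replicate 2 or 3 and without shcontrol replicate 2 or 3, at adjusted p up to 0.123. PDK3, a related kinase, averaged 2.31 ± 0.394 CPM in shATXN7L3 and 2.35 ± 0.467 CPM in shcontrol (log2 fold change -0.03, -0.39 to 0.34).

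The carbonic anhydrases of the cell surface, which help the cell to handle acid, differed widely in level, and CA12 alone passed. This is 1 of 2 genes, too few to read as a share, where 24.2% of all tested genes were called. CA12 (chromosome 15, 63321378 to 63382161, minus strand) was abundant, with 872.4, 852.0 and 864.1 CPM in shATXN7L3, against 972.3, 949.9 and 992.9 CPM in shcontrol. It fell by 0.17 on the log2 scale (SE 0.0410, adjusted p = 0.00423), to 0.888 of the control level (0.839 to 0.940 at ± 2 SE), with no overlap. CA9, the classical marker of hypoxic tumour cells, was barely present, at 0.516, 0.830 and 1.47 CPM in shATXN7L3 and 0.578, 0.368 and 0.527 CPM in shcontrol. Its groups overlapped and it did not pass (log2 fold change 0.92 ± 0.3602, adjusted p = 0.0697). Without shATXN7L3 replicate 3 the log2 fold change was 0.45 (edgeR adjusted p = 0.455) and without shATXN7L3 replicate 1 it was 1.21 (adjusted p = 0.0183). It also passed with the replicate block (adjusted p = 0.0445) and with no filter (adjusted p = 0.0246). Exons of ARHGEF39 on the opposite strand cover 38.5% of its exon bases, and reads of the pair cannot be told apart without strand.

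Of the 12 other hypoxia targets, 6 rose, HILPDA fell and 5 did not pass, where 12.2% of all tested genes rose and 12.0% fell. NDRG1 (chromosome 8, 133237171 to 133302022, minus strand), a stress-induced gene linked to differentiation and metastasis, had 80.2, 87.5 and 88.1 CPM in shATXN7L3, against 49.9, 52.5 and 55.1 CPM in shcontrol. The groups were far apart. NDRG1 averaged 85.3 ± 4.41 CPM in shATXN7L3 and 52.5 ± 2.60 CPM in shcontrol (log2 fold change 0.70 ± 0.0528, adjusted p = 7.21e-09; 1.63-fold, 1.51 to 1.75 at ± 2 SE). VEGFA (chromosome 6, 43770184 to 43786487, plus strand), the growth factor of blood vessels, had 85.9, 83.4 and 89.1 CPM in shATXN7L3 and 69.8, 67.4 and 67.1 CPM in shcontrol. It rose without overlap by 0.34 ± 0.0467 on the log2 scale (adjusted p = 2.02e-05).

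DDIT4 (chromosome 10, 72273920 to 72276036, plus strand), which encodes REDD1, an inhibitor of mTORC1 signalling, had 19.5, 21.0 and 21.5 CPM in shATXN7L3 and 17.1, 14.96 and 13.9 CPM in shcontrol. It rose without overlap (log2 fold change 0.43 ± 0.0763, adjusted p = 2.94e-04), but RP11-442H21.2 on the opposite strand covers 41.2% of its exon bases and had nearly the same change (log2 fold change 0.46, adjusted p = 2.38e-04), so reads of the pair cannot be told apart without strand. BHLHE40 (chromosome 3, 4979116 to 4985323, plus strand), a transcriptional repressor also known as DEC1, had 150.6, 161.1 and 155.0 CPM in shATXN7L3 and 134.1, 134.7 and 134.9 CPM in shcontrol. Its rise was small and clear of the spread (log2 fold change 0.21 ± 0.0435, adjusted p = 0.00133).

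ANGPTL4, a secreted inhibitor of lipoprotein lipase, had 2.24, 1.87 and 2.68 CPM in shATXN7L3 and 1.78, 1.11 and 1.10 CPM in shcontrol. Its rise of 0.76 ± 0.216 on the log2 scale (adjusted p = 0.0136) was lost without shATXN7L3 replicate 3 and without shcontrol replicate 2. ADM, the vasodilator peptide adrenomedullin, had 36.6, 36.4 and 37.3 CPM in shATXN7L3 and 36.0, 32.2 and 28.3 CPM in shcontrol. The groups just failed to overlap, and the call (log2 fold change 0.19 ± 0.0682, adjusted p = 0.0470) was lost under 8 alternatives. The log2 fold change of ADM was 0.10 without shcontrol replicate 3 (edgeR adjusted p = 0.241). HILPDA, a lipid droplet protein that blocks lipolysis, had 11.2, 10.8 and 10.6 CPM in shATXN7L3, against 12.9, 13.2 and 11.95 CPM in shcontrol. The groups did not overlap, and the fall of 0.22 (SE 0.0774, adjusted p = 0.0421) was lost under 9 alternatives. Genes on its own strand overlap 13.2% of its exon bases.

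The remaining 5 targets did not pass. BNIP3 and BNIP3L encode receptors that mark mitochondria for removal, and had log2 fold changes of 0.06 (adjusted p = 0.572) and 0.11 (adjusted p = 0.227). In the counts, 15 pseudogenes of BNIP3 hold up to 14.9% as many counts as the gene. P4HA1 and P4HA2, the catalytic subunits of collagen prolyl hydroxylase, had 0.13 (adjusted p = 0.153) and 0.06 (adjusted p = 0.527). P4HA1 passed with library size alone (edgeR adjusted p = 0.0478) and without shcontrol replicate 1 (adjusted p = 0.0137). ANKRD37, a small ankyrin-repeat protein, had -0.07 ± 0.186 (adjusted p = 0.831). Exons of UFSP2 on the opposite strand cover 35.2% of its exon bases. Counted regardless of the test, 24 of the 41 members had groups that did not overlap, 18 with shATXN7L3 above and 6 with shATXN7L3 below, against 38.3% of all tested genes (19.8% above and 18.4% below).

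**Figure D5:**
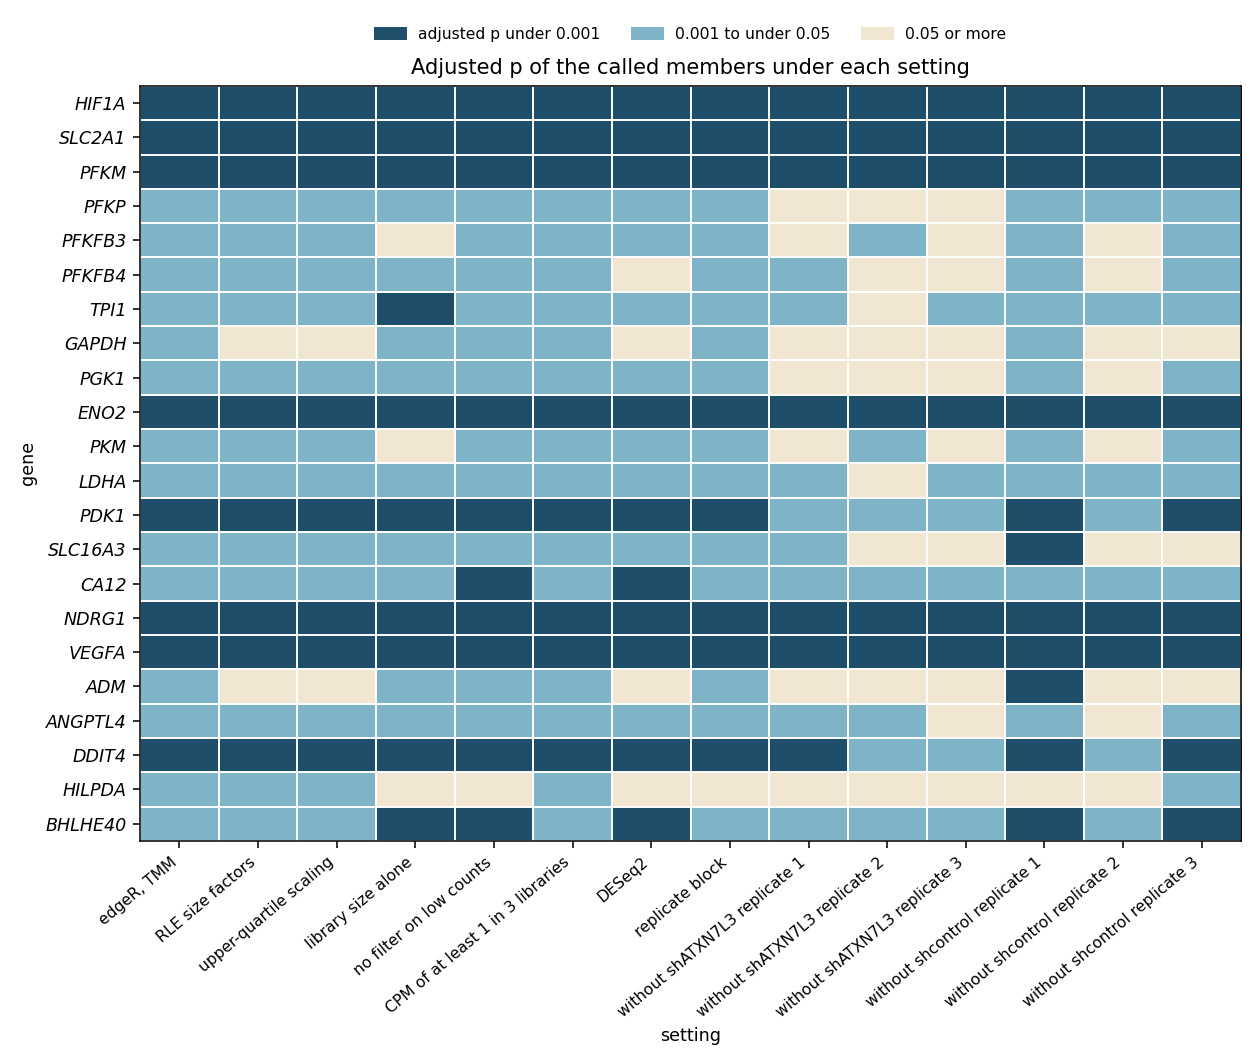
Adjusted p of the 22 called members (lines) with edgeR and TMM scaling in the first column and under each of the 13 alternatives, in 3 classes of colour: under 0.001, from there to under 0.05, and 0.05 or more. HIF1A, SLC2A1, PFKM, ENO2, NDRG1 and VEGFA are darkest in every column, while GAPDH and ADM turn pale under 8 alternatives and HILPDA under 9.

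A wider set of 81 related genes was read beside the members. Of these, 80 were in the counts, PGK2 was not analysed here, and 68 were tested, of which 19 rose, 12 fell and 37 did not pass, or 45.6% called, against 24.2% of all tested genes. Of 14 tested partners and regulators of the factors, 1 rose and 2 fell, or 21.4%, a share near that of all tested genes (24.2%). The single genes named here and among the transporters are therefore only examples of their values. ARNT2, an alternative partner of the alpha subunits, had 8.30, 5.64 and 5.98 CPM in shATXN7L3 and 4.36, 4.88 and 3.25 CPM in shcontrol, and rose without overlap (log2 fold change 0.67 ± 0.156, adjusted p = 0.00317). CREBBP, a histone acetyltransferase that serves as coactivator, averaged 149.8 ± 1.94 CPM in shATXN7L3 and 167.5 ± 10.99 CPM in shcontrol (log2 fold change -0.16, adjusted p = 0.0194). SIAH2, a ubiquitin ligase that acts on the prolyl hydroxylases, averaged 8.02 CPM in shATXN7L3 and 9.68 CPM in shcontrol (-0.27, adjusted p = 0.0368). The calls of CREBBP and SIAH2 were lost under 5 and 6 alternatives.

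Of 13 further transporters and isozymes tested, 2 rose and SLC2A10 fell, or 23.1%, again near the 24.2% of all tested genes. ADPGK, a glucokinase that uses ADP, rose to 64.0 ± 1.29 CPM in shATXN7L3, against 52.6 ± 1.34 CPM in shcontrol (log2 fold change 0.28 ± 0.0477, adjusted p = 1.82e-04). TIGAR, a phosphatase that lowers fructose 2,6-bisphosphate, averaged 31.9 CPM in shATXN7L3 and 27.9 CPM in shcontrol (0.20, adjusted p = 0.0181, lost under 4 alternatives). SLC2A10, the transporter GLUT10, averaged 0.966 CPM in shATXN7L3 and 1.57 CPM in shcontrol (-0.69, adjusted p = 0.0288, lost under 5 alternatives). Of 13 genes around pyruvate and lactate, 2 rose and 3 fell, or 38.5%, against 24.2% of all tested genes and 32.0% of those averaging at least 10 CPM. The genes named from this list are likewise only examples of their values. BSG, the chaperone of the lactate transporters, fell to 174.9 ± 1.96 CPM in shATXN7L3, against 204.8 ± 10.8 CPM in shcontrol (-0.23 ± 0.0458, adjusted p = 9.77e-04). MPC2, a subunit of the mitochondrial pyruvate carrier, fell to 23.5 CPM in shATXN7L3, against 28.0 CPM in shcontrol (-0.26, adjusted p = 0.00487). DLAT and DLD, subunits of pyruvate dehydrogenase, passed in opposite directions, with 51.4 CPM for DLAT in shATXN7L3 and 45.5 CPM in shcontrol (adjusted p = 0.0117), and 432.7 CPM for DLD in shATXN7L3 and 478.6 CPM in shcontrol (adjusted p = 0.0165). The DLAT call was lost without shcontrol replicate 2 and the DLD call under 4 alternatives.

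Of 28 further hypoxia targets tested, 14 rose and 6 fell, or 71.4%, against 24.2% of all tested genes, with a median log2 fold change of 0.18. GYS1, the glycogen synthase of most tissues, had 54.2, 56.1 and 56.4 CPM in shATXN7L3, against 41.7, 39.3 and 37.4 CPM in shcontrol (log2 fold change 0.50 ± 0.0528, adjusted p = 8.77e-07). Its groups were wholly separated. LOXL2, which crosslinks collagen, rose to 39.1 ± 0.610 CPM in shATXN7L3, against 29.1 ± 1.15 CPM in shcontrol (0.43 ± 0.0540, adjusted p = 7.01e-06). ENTPD4 overlaps it on the same strand. KDELR3, a retrieval receptor of the secretory pathway, rose to 7.39 ± 0.637 CPM in shATXN7L3, against 4.31 ± 0.386 CPM in shcontrol (0.78 ± 0.114, adjusted p = 4.12e-05). None of these 3 calls was lost under any alternative.

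Some genes of the further targets were singled out after their values were seen. With GYS1, the other glycogen-building genes GBE1 (log2 fold change 0.18, adjusted p = 0.00790) and PGM1 (0.30, adjusted p = 0.00217) rose, and PPP1R3C, which directs a phosphatase to glycogen, did not pass (-0.27). Of the largest changes, TXNIP, an inhibitor of glucose uptake, fell to 0.350 ± 0.0818 CPM in shATXN7L3, against 1.03 ± 0.303 CPM in shcontrol (-1.54 ± 0.325, adjusted p = 0.00149), at a low level. AK4, a mitochondrial adenylate kinase, fell to 4.24 ± 0.460 CPM in shATXN7L3, against 7.12 ± 0.173 CPM in shcontrol (-0.75 ± 0.111, adjusted p = 4.96e-05). Neither call was lost under any alternative.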

How the data were processed

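The authors deposited raw counts of reads over genes, in 1 table for the 6 libraries, with coordinates and exon lengths on GRCh38. Per the labels' protocols, RNA was taken up in Trizol and polyadenylated RNA was selected. Per the submitters' processing notes, Trimmomatic 0.36, STAR 2.5.3a, featureCounts of Subread 1.5.1 and edgeR 3.12.1 were used. The sources used here do not give the annotation release, the strand setting or the treatment of multiply mapped reads, so reads of overlapping, antisense or duplicated genes cannot be told apart. Of the 41 tested members, 6 overlap same-strand exons of another gene and 18 only opposite-strand ones.

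Groups came from the treatment label. Genes were kept by filterByExpr (minimum count 10, total 15), which left 17935 of 34234. The test was edgeR's quasi-likelihood one (edgeR 4.0.16 in R 4.3.3, TMM scaling, no covariate), and p-values were adjusted over all of them by Benjamini-Hochberg, with a threshold of 0.05. The SE is the log2 fold change divided by the square root of F, an approximation. Isozyme sums used counts per 1e6 per kb and two-sided exact permutation tests. Same-numbered libraries did not deviate together (correlations -0.016, 0.00514 and 0.0442), and the main fit did not pair them. These correlations cannot show whether the libraries were prepared as pairs. Members and lists were chosen with earlier results of these data known. All 44 members were named, and of each wider list up to 4 genes past the threshold with the smallest p. A gene that this rule names is not reported here. The alternatives were scaling by RLE, by upper quartiles or by library size alone, dropping the filter, a filter at 1 CPM in 3 libraries, DESeq2 1.42.0, the replicate number as a block, and each library left out. Promoter windows came from the RefSeq table on GRCh38.p14. ERO1L of the wider list was matched to ERO1A, its name in the counts.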

Additional observations from a re-analysis of the deposited data

How the results depend on the processing

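ATXN7L3 kept its fall under all 13 alternatives (log2 fold change -0.89 to -0.83). Over all tested genes, DESeq2 called 1405 higher in shATXN7L3, against 2182 with edgeR. Leaving out each library in turn gave 8 to 17 members called higher, 3 to 6 called lower and 6 to 12 genes of the wider set called lower. Over all tested genes these fits called 1543 to 2224 higher and 1547 to 2257 lower. Without a shATXN7L3 library or without shcontrol replicate 2, that was 8.47% to 9.47% in each direction. The lowest counts called lower, 3 of 41 members and 6 of 68 wider genes, were near such shares. Scaling by library size alone raised the median of all genes by 0.0432 on the log2 scale. It gave 2955 genes higher and 1604 lower, 21 members higher and 3 lower, and 7 genes of the wider set lower. RLE and upper-quartile scaling moved the median by -0.0053 and -0.0071. With the replicate block, 19 members were called higher and 5 lower, and over all genes 2188 and 2140. DESeq2 called 13 members higher and 5 lower. Of 532 pairs of a member and an alternative, 452 kept direction and call, 52 lost the call, 15 gained it and 13 changed sign, all of these for members that were not called. EGLN1 went to 0.0 with library size alone and ran from -0.1 to 0.0 over the left-out libraries. LDHB had 0.03 with library size alone and -0.06 to 0.0 over the left-out libraries, PDK3 0.02 and -0.17 to 0.13. VHL ran from -0.03 to 0.07 and ANKRD37 from -0.24 to 0.15 over the left-out libraries. The summed lactate dehydrogenase step ran from -0.01 to 0.03 over them. The causes were not tested. EGLN3, SLC2A3, HK2, CA9, PFKFB4 and ANGPTL4 had the lowest mean counts of the members, and the part of depth was not tested. Of the 22 called members, 12 lost the call under at least 1 alternative.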
